A study of Mus musculus with 15 samples.

Results

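Mouse oocytes from preantral follicles grown in vitro without neurotrophin-4 (NT-4) were compared between day 10 and day 6 of culture. The libraries were chosen by their titles, 3 of IVG day 10 and 3 of IVG day 6, which makes 6 of the 15 oocyte libraries of the series. IVG stands for in-vitro-grown. The follicles came from Kunming females of 12 to 14 days of age and were cultured with follicle-stimulating hormone (FSH), so both days share the strain, the donor age and the hormone. Neither group received NT-4 and neither carried a transgene or deletion. Each library was made with SMART-Seq2 from a pool of 6 oocytes that had been stripped of their granulosa cells with hyaluronidase and pipetting. The other 9 libraries, used here to estimate the spread, came from IVG-NT oocytes (grown with NT-4, 3 libraries on each day) and from oocytes grown in vivo (IVV, 3 libraries). The groups were described as samples of independent experiments, but a shared culture behind an equal replicate number is not stated, so p-values measure the spread between these pools.

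An oocyte inside a growing follicle makes and stores the mRNAs and proteins that will carry it through meiotic maturation and the first divisions of the embryo. It grows in contact with granulosa cells, which feed it metabolites through gap junctions and make inhibins, activins and estradiol in response to FSH. Growing oocytes multiply their mitochondria, and the full-grown oocyte silences transcription before meiosis resumes. The comparison of the later with the earlier day follows oocyte RNA over the last days of follicle culture.

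The libraries held 23684453 to 55593251 gene counts, and 15483 to 22499 genes had at least 1 count. Replicates 1 and 2 of both days were rich in reads of an rRNA gene (CT010467.1, 12.5 to 28.7% of all counts), and replicate 3 of both days was poor in it (0.396 and 0.593%). Replicate 3 therefore stood apart on each day, and the main comparisons are given also between libraries of equal number. Without that rRNA gene the libraries held 32829542, 38018284 and 45305255 counts on day 10 and 23159679, 16894387 and 55373173 on day 6. Day 6 replicates 1 and 2 were thus shallower than the equal-numbered day 10 libraries. They had 18172 and 15483 genes with a count, against 18242 and 21009. Values are normalized CPM (edgeR), in which a gene's counts are divided by the library's total and scaled with TMM factors. They are shares of each library, since the RNA content per oocyte was not measured, so fewer cells of a type and less RNA per cell cannot be told apart. The oocyte identity list, 18 genes that include zona pellucida proteins and oocyte growth factors, was abundant in all 6 libraries, with summed levels of 23271, 21116 and 24618 CPM on day 10 and 32703, 33755 and 26265 CPM on day 6. None of the 18 was past the threshold upwards, and 1 of them, Zp2, was past it downwards (5.56% beside 1.21% of all genes tested).

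Differentially expressed genes (DEGs) were defined by a log2 fold change over 1 in either direction and an unadjusted p under 0.05 in edgeR's quasi-likelihood test. Of 21009 genes tested, 355 were higher on day 10 (1.69% of the genes tested) and 254 were lower (1.21%). All DEGs of this fit over all 15 libraries had a Benjamini-Hochberg adjusted p = 1, so the calls named below rest on the unadjusted threshold. In this fit no gene had an adjusted p under 0.05 and 609 had an unadjusted p under 0.05, whereas DESeq2's Wald test gave 592 DEGs and 105 genes under that adjusted limit. With no difference between the days, a share of up to 0.05 of the genes would have such an unadjusted p. The 609 genes are fewer than that share of the 21009. When only the 6 IVG libraries were fitted with the replicate number as a block, the replicate block fit, 412 of 16711 genes were higher (2.47%) and 479 were lower (2.87%). In that fit 1308 genes had an unadjusted p under 0.05 and 1 gene, Rsc1a1, an adjusted p under 0.05. The 1308 genes are more than a share of 0.05 of the 16711. Both fits called 121 of the same genes, 19.9% of the 609 and 13.6% of the 891. The low-count filter of the replicate block fit kept only 90 of the 355 higher and 71 of the 254 lower DEGs. Of those it called 62 and 59 in the same direction, so most of the others were not tested there.

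The DEGs were mostly genes of low level. Of the 355 higher genes, 294 had no count in any day 6 library and 21 reached a mean of 10 CPM in either day. Day 6 replicates 1 and 2 were the shallower libraries of their pairs, and the part of depth in these zeros was not tested. Of the 254 lower genes, 173 had no count in any day 10 library and 53 reached 10 CPM, among them 28 that reached 100 CPM, against 5 of the higher genes. Protein-coding genes made up 289 of the higher and 143 of the lower DEGs, and long non-coding RNAs 35 and 53. A count in all 3 libraries of the higher day was seen for 163 of the 355 higher and 97 of the 254 lower genes.

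**Figure D1:**
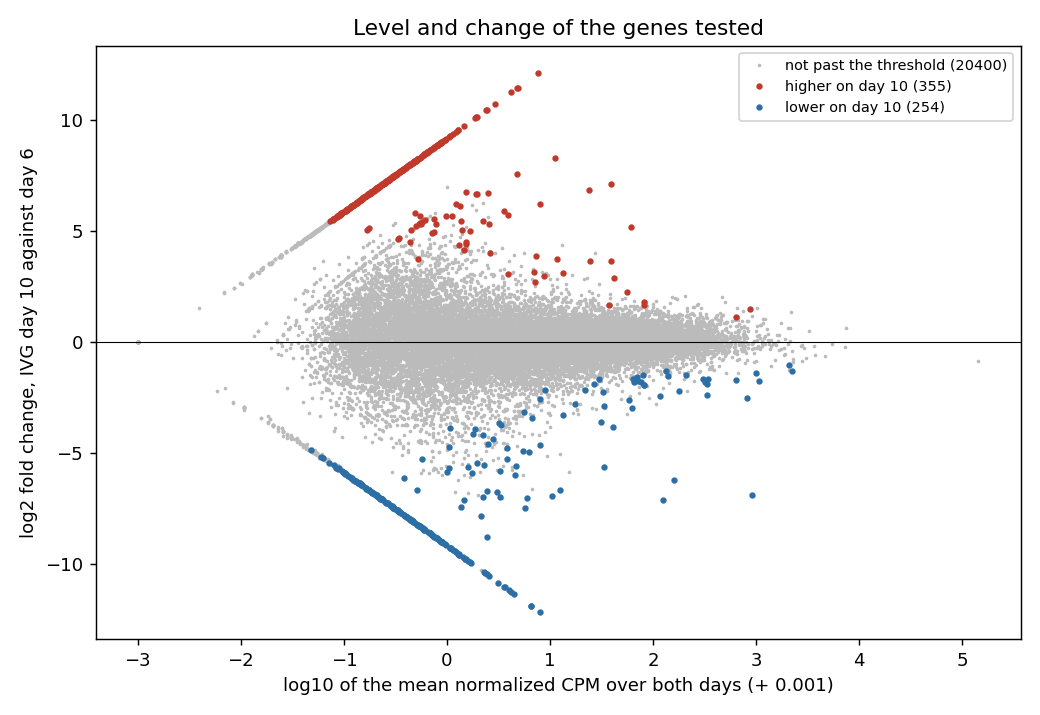
Log2 fold change (IVG day 10 against IVG day 6, y axis) against the log10 of the mean normalized CPM over both days (x axis) for the 21009 genes tested. Each point is 1 gene, and the 355 higher and 254 lower DEGs are coloured. Most coloured points lie at the left, where a gene was at 0 in all libraries of 1 day, and they thin out towards abundant genes.

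Separation of the libraries gave a second view that uses no model. All 3 day 10 libraries lay above all 3 day 6 libraries for 940 genes (4.47%) and below them for 619 genes (2.95%). Together these made up 7.42% of the genes. With no difference between the days and libraries of 1 kind, 3 against 3 libraries separate in 1 or the other direction with a probability of up to 0.1. Here replicate 3 differed in kind from replicates 1 and 2 on both days, which that probability does not cover. These shares therefore cannot show whether there was an excess of separated genes. A difference of over 1 in log2 CPM in the same direction in all 3 equal-numbered pairs was seen for 475 genes upwards (2.26%) and 286 genes downwards (1.36%). The median difference over all genes was 0.00 in pairs 1 and 3 and 0.21 in pair 2, where 7699 genes were higher by over 1 and 3938 lower. In pair 2 the day 6 library was the shallowest of the 6.

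The mRNAs encoded by the mitochondrial genome were lower on day 10. These 13 mRNAs encode subunits of respiratory chain complexes I, III and IV and of ATP synthase. Their summed level was 1409, 2245 and 2185 CPM in the day 10 libraries (1946 ± 467, SD, n = 3) and 7203, 5702 and 6902 CPM in the day 6 libraries (6602 ± 794, SD, n = 3). All 3 day 10 libraries lay below all 3 day 6 libraries, and the exact two-sided permutation test gave p = 0.1, the smallest p that 3 against 3 libraries allow. As a share of all counts before scaling, the 13 mRNAs took 0.128, 0.228 and 0.272% on day 10 and 0.698, 0.468 and 0.844% on day 6. The 3 IVV libraries had summed levels of 4834, 2078 and 4857 CPM.

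In the fit over all 15 libraries 8 of 13 were DEGs, all lower, beside 1.21% of all genes, and in the replicate block fit 11 of 13 were lower, beside 2.87%. The count was 3 without IVG day 10 replicate 1, 6 without replicate 2 and 5 without replicate 3, and it was 4, 8 and 6 without IVG day 6 replicates 1, 2 and 3. No member was past the threshold upwards in any of these fits. The log2 fold changes ran from -2.54 to -1.07 with a median of -1.77, against 0.05 over all genes tested, and 11 of 13 were lower in all 3 pairs, a decrease of any size that 11.8% of all genes showed. The smallest adjusted p among the 13 was 0.142, in the replicate block fit.

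The mRNAs of complex I, the entry point of electrons from NADH, had the lowest median log2 fold change within this group, -2.18. The 7 mt-Nd mRNAs summed to 567, 837 and 566 CPM on day 10 and 4039, 3076 and 1998 CPM on day 6, and 6 of the 7 were DEGs (7 of 7 in the replicate block fit). mt-Nd1 (chrM:2751-3707, GRCm38) stood at 75.2, 130 and 120 CPM on day 10 and at 675, 486 and 519 CPM on day 6. Its log2 fold change was -2.37 ± 0.75 (SE), and -2.39 ± 0.32 in the replicate block fit, and it was a DEG without any 1 of the 6 libraries. mt-Nd5 (253, 344 and 121 CPM against 2116, 1768 and 294) and mt-Nd2 (42.3, 69.8 and 81.9 against 287, 206 and 389) had log2 fold changes of -2.54 and -2.19. mt-Nd5 lost the call without IVG day 10 replicate 3 (-2.22) or IVG day 6 replicate 1 (-2.10), and mt-Nd2 lost it without IVG day 10 replicate 1 (-1.96).

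mt-Cytb, the only complex III subunit encoded in mitochondria, was at 277, 441 and 172 CPM on day 10 and at 1476, 802 and 651 CPM on day 6 (log2 fold change -1.72 ± 0.64). The call was lost without IVG day 10 replicate 3 (-1.44) or IVG day 6 replicate 1 (-1.29). The 3 cytochrome c oxidase mRNAs of complex IV summed to 535, 920 and 1367 CPM against 1642, 1780 and 3873 CPM, and 1 of them, mt-Co1, was a DEG (-1.42 ± 0.53) and lost the call without IVG day 10 replicate 1 (-1.13). The ATP synthase pair mt-Atp6 and mt-Atp8 held no DEG in the fit over all libraries, with sums of 29.5, 47.1 and 80.0 CPM against 45.4, 43.9 and 380 CPM, so its day 6 replicate 3 was high and the other day 6 libraries fell within the day 10 range.

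**Figure D2:**
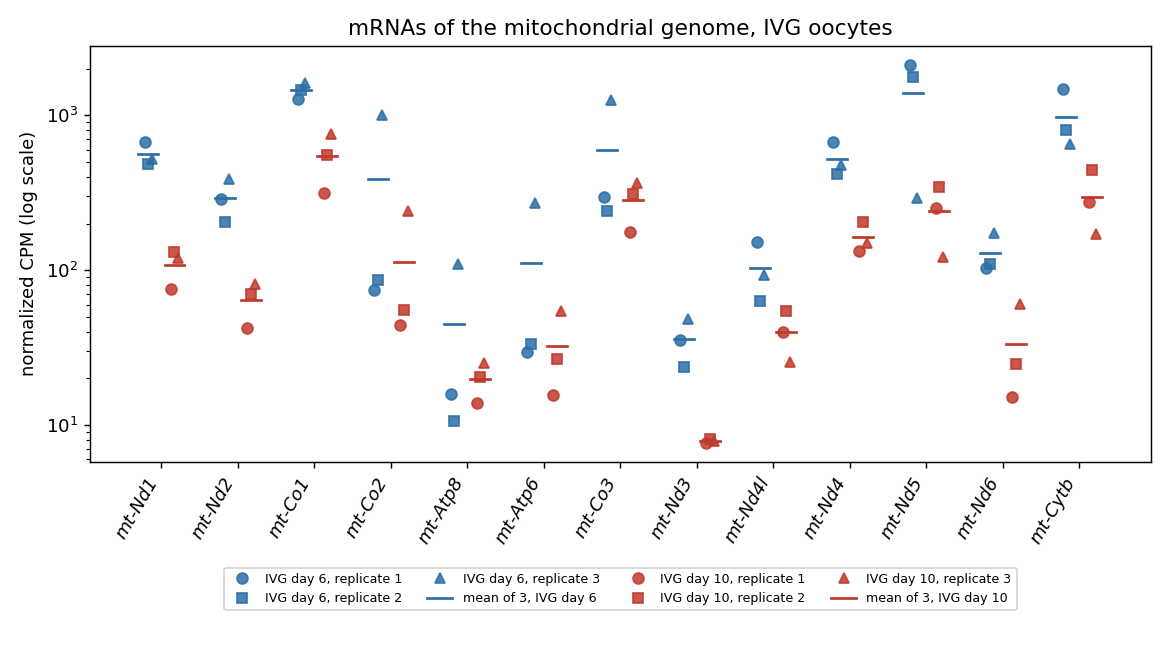
Normalized CPM (log scale, y axis) of the 13 mitochondrial mRNAs in genome order (x axis). Each point is 1 library, coloured by day and shaped by replicate number, and bars are means of 3. For mt-Nd1, mt-Nd2, mt-Nd3, mt-Nd4, mt-Nd4l, mt-Nd6, mt-Co1 and mt-Cytb the 2 days do not overlap, whereas for the other 5 mRNAs they do.

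The mitochondrial rRNAs did not share 1 pattern. The small-subunit rRNA mt-Rnr1 was at 78.3, 96.0 and 911 CPM on day 10 and 316, 536 and 2038 CPM on day 6, lower within each pair, with a log2 fold change of -1.89 ± 0.31 in the replicate block fit but no call in the fit over all libraries. The large-subunit rRNA mt-Rnr2 was at 10033, 8535 and 1801 CPM on day 10 and 10244, 9073 and 4199 CPM on day 6, and its difference missed the threshold (-0.21). Of 22 mitochondrial tRNA genes tested, 4 were DEGs, all lower, beside 1.21% of all genes.

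Nuclear genes of the same machinery had lower medians in the rRNA-rich pairs than in the rRNA-poor pair. Of 75 nuclear oxidative phosphorylation subunits tested, 0 were DEGs in edgeR's fit over all libraries (0 with an unadjusted p under 0.05, and 0 DEGs by DESeq2), and 15 were lower in the replicate block fit, 20% of the list beside 2.87% of all genes. The count was 0 with the block fitted over the 12 in vitro libraries, 4 with a term for rRNA-rich or rRNA-poor libraries, and 5 (with 1 higher) in the rRNA-rich libraries alone. The 15 include Ndufa6 and Ndufb3 of complex I (block log2 fold changes -1.69 and -1.42), Cox6c of complex IV (-1.47) and Atp5e of ATP synthase (-1.45). The median of the list was -0.78 in pair 1, -1.10 in pair 2 and 0.06 in pair 3, so it was below the all-gene median in the rRNA-rich pairs and near it in the rRNA-poor pair. In level, Ndufa6 was at 7.97, 13.7 and 145 CPM on day 10 and 50.04, 40.6 and 262 CPM on day 6, and replicate 3 was the highest of its group on both days. Cytosolic ribosomal proteins showed the same order, with 0 DEGs of 83 over all libraries (0 with an unadjusted p under 0.05, and 0 DEGs by DESeq2), 9 lower in the replicate block fit (Rpl22l1 at -2.06 and Rps23 at -1.90 among them) and pair medians of -0.68, -0.94 and 0.31. Here 0 were lower with the block over the 12 in vitro libraries, 1 with the rRNA term and 7 in the rRNA-rich libraries alone. Both lists had higher summed levels in the rRNA-poor replicate 3 than in replicates 1 and 2 on each day. Within pairs 1 and 2, however, day 10 had the smaller rRNA share (16.4 against 19.2%, and 12.5 against 28.7%). The nuclear oxidative phosphorylation sums were lower there too (2444 against 3582 CPM, and 2664 against 4876 CPM). The part of the rRNA share in these values was not tested.

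Among the granulosa cell markers 4 genes were higher on day 10. Of 28 listed genes 27 were tested, 4 were DEGs upwards (Inhba, Inhbb, Grem1 and Npr2) and 1 downwards (Slc38a3), 14.8 and 3.7% of those tested beside 1.69 and 1.21% of all genes, and the median log2 fold change was 0.70 beside 0.05 over all genes. In the replicate block fit 5 of 23 were higher (Fshr, Grem1, Inhba, Inhbb and Ivns1abp), 21.7% beside 2.47% of all genes. The pair medians were 0.00, 1.26 and 1.69, so the median of pair 1 was at 0.

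Inhba and Inhbb encode the beta subunits of activins and inhibins, hormones of the FSH feedback loop. Inhba (chr13:16011851-16031621, GRCm38) was at 6.79, 71.3 and 64.3 CPM on day 10 and at 0.720, 0 and 0.5002 CPM on day 6 (log2 fold change 6.84 ± 1.68). Inhbb was at 0.562, 41.9 and 24.0 CPM on day 10 and at 0, 0 and 0.177 CPM on day 6 (8.27 ± 2.03). The days did not overlap for either gene, and day 10 replicate 1 was the lowest of its group for both. In IVV oocytes Inhba stood at 12.7, 34.6 and 10.5 CPM and Inhbb at 19.9, 47.3 and 31.5 CPM.

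Grem1, a BMP antagonist secreted by cumulus cells under the influence of the oocyte, was at 70.4, 206 and 77.6 CPM on day 10 and at 0, 0 and 9.62 CPM on day 6 (5.19 ± 1.80). Npr2, the receptor through which granulosa cells supply cGMP to the arrested oocyte, was at 0, 5.56 and 2.15 CPM on day 10 and had no count on day 6, a level at least 103-fold higher against a floor of 3 counts over the day 6 group. The FSH receptor gene Fshr was at 9.38, 16.1 and 8.20 CPM against 0.972, 1.34 and 6.43 CPM and passed the threshold in the replicate block fit alone (2.45 ± 0.99). Versican (Vcan), an extracellular matrix proteoglycan of the expanding cumulus, was at 2.39, 15.4 and 5.25 CPM against 0, 0.463 and 0 CPM (5.71 ± 2.48), and lost the call without IVG day 10 replicate 2 (4.69) or without IVG day 6 replicates 1 (5.10) or 3 (5.06). Vcan and Adamts1, which encodes a protease that cuts versican, were the 2 DEGs among 8 cumulus expansion genes tested, beside 1.69% of all genes. The median log2 fold change of the 8 was 0.07, beside 0.05 over all genes, and the pair medians were 0.00, 2.37 and -0.29. Their summed level was 214, 257 and 60.9 CPM on day 10 and 184, 191 and 103 CPM on day 6. Adamts1 was at 0, 0.794 and 0.176 CPM on day 10 and had no count on day 6. It lost the call without IVG day 10 replicate 2 (4.74) or any 1 day 6 library (6.48 to 6.59).

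Other granulosa genes did not pass the threshold. Foxl2, a transcription factor of granulosa identity, was at 0, 1.20 and 2.43 CPM against 0.432, 0 and 0.118 CPM. The aromatase gene Cyp19a1 was at 13.4, 29.6 and 12.4 CPM against 13.2, 12.4 and 15.1 CPM, and Inha, the inhibin alpha subunit, at 3.51, 83.4 and 94.0 CPM against 11.9, 33.1 and 1.47 CPM. The days overlapped for all 3 genes. Amh was not tested, having too few counts. The summed level of the whole list was 1699, 2059 and 1163 CPM on day 10 and 1558, 1606 and 831 CPM on day 6. Serpine2, Foxo1, Esr2 and Hsd17b7 held most of that sum (1497, 1448 and 771 CPM against 1440, 1415 and 761 CPM), and the other members summed to 201, 611 and 391.8 CPM against 119, 190 and 70.0 CPM.

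**Figure D3:**
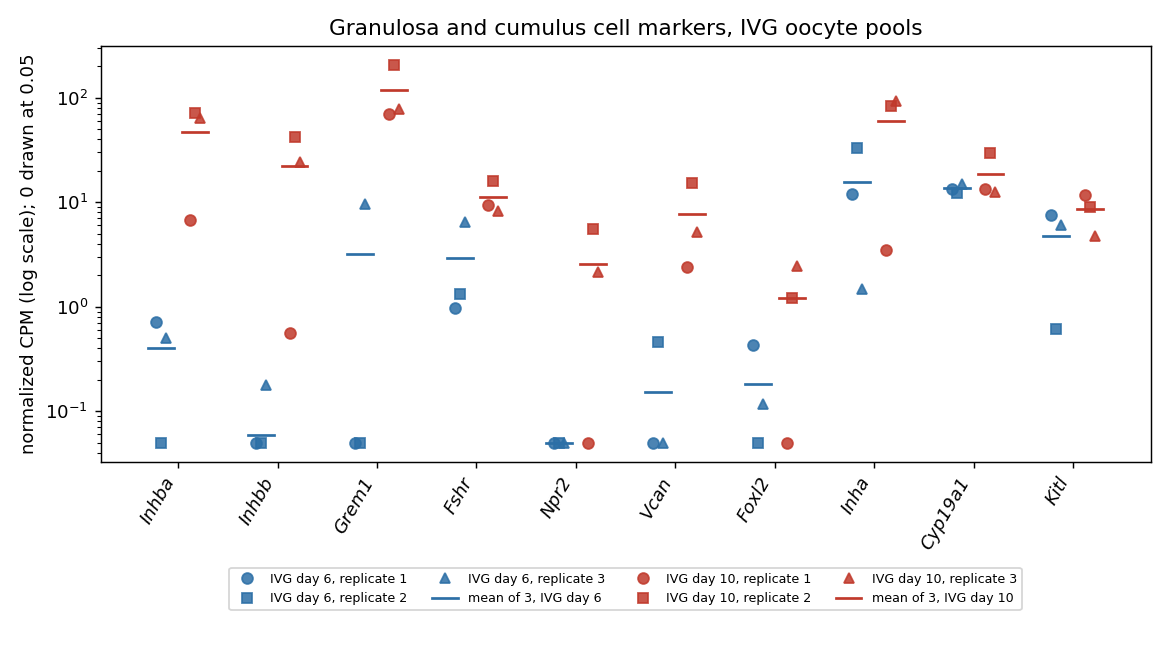
Normalized CPM (log scale, y axis, values of 0 drawn at 0.05) of 10 granulosa and cumulus cell markers (x axis) in each IVG library, with bars for the means of 3. Inhba, Inhbb, Grem1, Fshr and Vcan have all day 10 points above all day 6 points, and Foxl2, Inha, Cyp19a1, Kitl and Npr2 overlap.

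Markers of other ovarian cells were low. None of 14 theca and stroma markers was a DEG in edgeR's test, and their summed level was 5.64, 5.94 and 41.1 CPM on day 10 and 5.69, 38.8 and 4.59 CPM on day 6. None of 12 macrophage and immune markers was a DEG (29.7, 34.5 and 88.4 CPM against 44.6, 47.9 and 137 CPM), nor any of 11 endothelial and blood markers (75.5, 60.2 and 45.7 CPM against 77.5, 67.1 and 35.3 CPM). None of these 3 lists had a member with an unadjusted p under 0.05 in edgeR, and DESeq2 called Dcn of the stroma (0, 0.181 and 3.36 CPM against 0, 0 and 0.0588 CPM) and the globin gene Hba-a1 (0, 0 and 1.46 CPM against 0 in each day 6 library), both highest in day 10 replicate 3. The complement gene C1qb was lower in the replicate block fit (-1.52 ± 0.48). The number of listed genes with a count differed more, and day 6 replicates 1 and 2 were the shallower libraries of their pairs. Of 28 granulosa markers 19, 23 and 24 had a count on day 10 and 22, 17 and 21 on day 6, and of 17 macrophage markers 5, 6 and 15 had a count on day 10 and 3, 3 and 5 on day 6. The part of carried-over somatic cells in the higher levels of Inhba, Inhbb, Grem1, Npr2 and Vcan was not tested.

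Among single genes, the replicate block fit gave its only adjusted call to Rsc1a1. Rsc1a1, which encodes a regulator of solute carriers, was at 95.9, 80.9 and 53.4 CPM on day 10 and at 0.720, 0.875 and 0.103 CPM on day 6, with no overlap. Its log2 fold change was 7.10 ± 1.89 over all libraries and 7.43 ± 0.64 (adjusted p = 0.0211, edgeR) with the replicate block. The gene (chr4:141683851-141685599, GRCm38) lies within Ddi2 on the same strand, so the assignment of reads between both is uncertain. Ddi2 was at 143, 131 and 101 CPM against 89.4, 66.1 and 83.0 CPM (0.65). In IVV oocytes Rsc1a1 was at 29.0, 2.73 and 27.8 CPM.

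Ccnd2, the D-type cyclin that FSH induces in granulosa cells, was at 34.8, 97.4 and 86.1 CPM on day 10 and at 5.22, 4.58 and 7.69 CPM on day 6. The groups did not overlap and the log2 fold change was 3.64 ± 0.90, with 3.53 ± 0.46 in the replicate block fit. IVV oocytes held 78.8, 157 and 99.7 CPM. Ccnd2 is not in the granulosa list, and the part of carried-over somatic cells in its level was not tested.

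Several genes were seen on day 10 only, at low level, while day 6 replicates 1 and 2 were shallower than the equal-numbered day 10 libraries. The gene 4931408C20Rik was at 4.58, 9.68 and 3.17 CPM (at least 217-fold higher), Zc3hav1, an antiviral RNA-binding protein, at 1.68, 1.34 and 0.845 CPM (at least 47.0-fold higher), and Dnajb13, a cochaperone of axonemes, at 0.140, 4.20 and 7.41 CPM (at least 172-fold higher). Gm28043 was highest in day 10 replicate 3, with 0.168, 2.02 and 26.9 CPM. Of the 8 protein-coding genes named for the smallest p upwards, all 8 remained DEGs without any 1 of the 6 IVG libraries. They had been chosen from the same libraries for a small p and a rise in every pair, so this is no independent check.

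**Figure D4:**
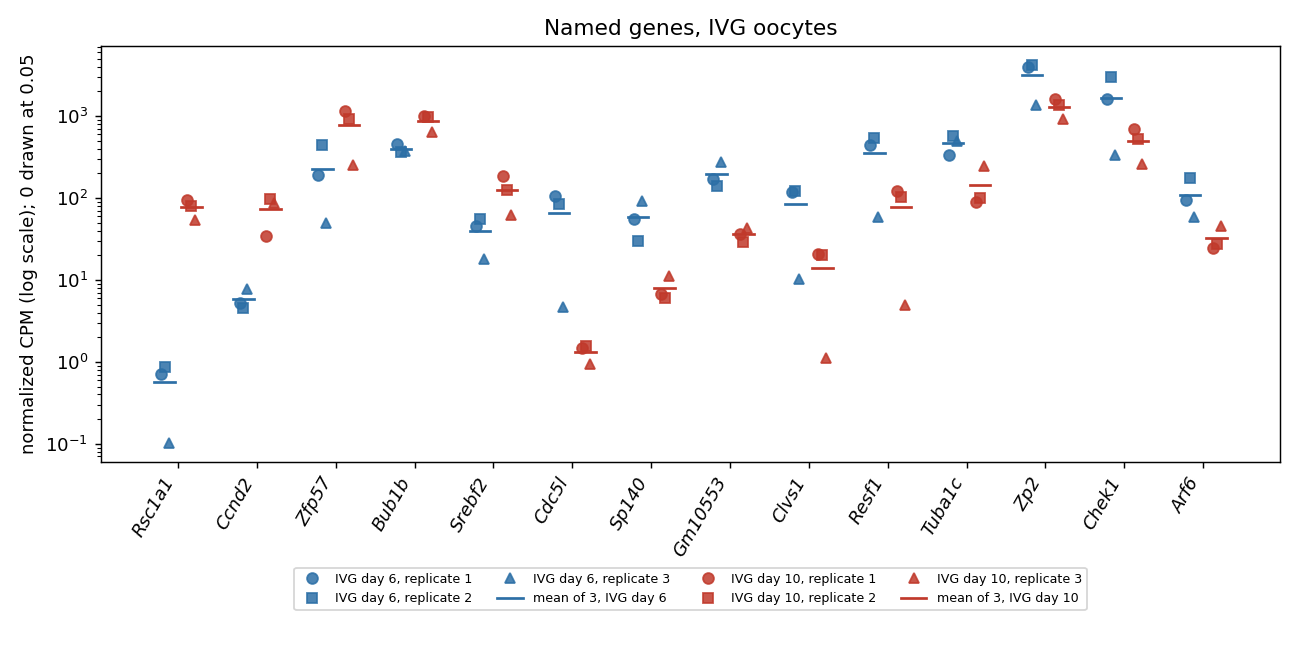
Normalized CPM (log scale, y axis, values of 0 drawn at 0.05) of 14 named genes (x axis) in each IVG library, with bars for the means of 3. The days are separated for Rsc1a1, Ccnd2, Bub1b, Srebf2, Cdc5l, Sp140, Gm10553, Tuba1c and Arf6, and for Zfp57, Clvs1 and Resf1 the rRNA-poor replicate 3 of both days lies below the other replicates of its day.

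On the lower side, Cdc5l, a core component of the spliceosome, had the smallest p. It was at 1.46, 1.54 and 0.951 CPM on day 10 and at 105, 84.4 and 4.74 CPM on day 6 (-5.62 ± 1.39), so the groups were separate although day 6 replicate 3 was far below the other day 6 libraries. Sp140, a nuclear body protein of immune cells, was at 6.68, 6.08 and 11.1 CPM against 54.9, 30.0 and 90.7 CPM (-2.88 ± 0.88). Gm10553 (36.7, 29.3 and 42.5 CPM against 169, 140 and 274 CPM) and C130026I21Rik (12.6, 12.6 and 24.0 CPM against 81.4, 33.8 and 185 CPM) lie in the same stretch of chromosome 1. C130026I21Rik lost the call without IVG day 6 replicate 3 (-1.81). Sult3a2, a sulfotransferase, and BC051142 had no count on day 10, with levels at least 45.4-fold and 22.9-fold lower. Hist2h3c1, a replication-dependent histone H3 gene, rested on day 6 replicate 2 (746 CPM, against 2.70 and 1.44 CPM in the others) and had a log2 fold change of -0.22 without it.

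With the replicate block, Clvs1 and Resf1 were also lower. Clvs1, a lipid-binding protein of endosomes, was at 20.5, 20.3 and 1.13 CPM against 118, 123 and 10.3 CPM (block -2.77 ± 0.36). Resf1, a factor that acts with histone methylation to silence retroelements, was at 122, 104 and 4.91 CPM against 447, 544 and 58.7 CPM (block -2.61 ± 0.37). Each pair was separated, but the days overlapped because replicate 3 was low on both days, and in the fit over all libraries neither passed.

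Most oocyte-specific genes did not pass the threshold. Zp2, a zona pellucida glycoprotein that binds sperm, was the exception, at 1606, 1364 and 927 CPM on day 10 and 3964, 4228 and 1364 CPM on day 6 (-1.29 ± 0.60). Zp2 lost the call when any 1 library except IVG day 6 replicate 3 was left out (-1.46 to -1.04), and its days overlapped, since day 6 replicate 3 lay below day 10 replicate 1. Zp3 was at 733, 796 and 2963 CPM against 1168, 1229 and 4317 CPM, Gdf9 at 2434, 2530 and 5261 CPM against 2845, 3813 and 4818 CPM, and Bmp15 at 4614, 3634 and 720 CPM against 5643, 6654 and 1133 CPM. Zp3 and Bmp15 were lower in each pair and overlapped between days. The oocyte identity list had pair medians of -0.26, -0.49 and -0.27, and 9 of its 18 members were lower in all 3 pairs, beside 11.8% of all genes.

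The genes the study used as markers of oogenesis and oocyte growth are given as levels. Lhx8 was at 329, 286 and 118 CPM on day 10 and 270, 440 and 135 CPM on day 6, Nobox at 831, 728 and 356 CPM against 1143, 737 and 481 CPM, and Foxo3 at 1564, 1210 and 171 CPM against 1546, 1594 and 163 CPM. These transcription factors of the growing oocyte overlapped between days. Sohlh2 was at 16.0, 11.9 and 8.36 CPM against 2.45, 11.9 and 4.13 CPM, Zp1 at 1049, 962 and 657 CPM against 963, 1065 and 785 CPM, and Suv39h1, a histone H3 methyltransferase, at 1.68, 3.42 and 7.76 CPM against 3.46, 2.11 and 1.94 CPM. Zp4-ps was at 4.07, 2.83 and 24.0 CPM against 3.60, 1.85 and 27.2 CPM. Ntrk2, the gene of the NT-4 receptor TRKB, was at 0.674, 1.63 and 1.11 CPM against 5.72, 2.52 and 0.736 CPM, low on both days.

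Of the calcium and cAMP genes that the study followed, Cacna1s, a calcium channel subunit, had no count in any of the 6 libraries. Orai1, the pore of store-operated calcium entry, was at 12.5, 9.71 and 49.5 CPM against 31.3, 19.9 and 55.8 CPM. Prkaca, the catalytic subunit of protein kinase A, was at 7.33, 8.64 and 9.40 CPM on day 10 and at 34.2, 22.7 and 9.47 CPM on day 6, separated between days but with a difference of only -0.01 in pair 3. The transcription factors it named held no DEG except Jun, at 0, 13.02 and 2.01 CPM against 0, 0 and 0.118 CPM (6.69 ± 2.39), which lost the call without IVG day 10 replicate 2 (4.41). Trp53 was at 40.0, 49.7 and 18.5 CPM against 10.3, 8.70 and 27.0 CPM, Stat3 at 92.8, 90.5 and 49.1 CPM against 98.1, 133 and 53.7 CPM, Egr1 at 151, 165 and 21.2 CPM against 99.9, 80.3 and 26.9 CPM, Nfkb1 at 5.53, 9.62 and 4.35 CPM against 0.432, 0.412 and 3.49 CPM and Rela at 166, 165 and 28.5 CPM against 152, 149 and 54.5 CPM. Of these 5, only Nfkb1 was separated between days.

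Genes of meiotic control held 1 DEG. Of 40 genes of meiotic arrest and maturation promoting factor, 1 was a DEG, higher (2.5% beside 1.69% of all genes). The median was 0.05, as over all genes. Bub1b, a kinase of the spindle assembly checkpoint, was at 1002, 971 and 648 CPM on day 10 and 456, 367 and 378 CPM on day 6, with no overlap (1.13 ± 0.51). The call was lost without any 1 library except IVG day 10 replicate 3, with log2 fold changes between 1.02 and 1.23. The replicate block fit added Mastl, the Greatwall kinase that restrains the phosphatase opposing cyclin-dependent kinase 1 (473, 459 and 112 CPM against 193, 124 and 113 CPM), Cdc20, an activator of the anaphase-promoting complex (82.8, 112 and 166 CPM against 34.0, 30.1 and 89.3 CPM) and the checkpoint gene Mad1l1 as higher. Fzr1, the other activator of that complex, was lower there. In that fit 4 of the 40 were higher and 1 lower (10 and 2.5%, beside 2.47 and 2.87% of all genes).

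Of 46 spindle and kinesin genes 1 was a DEG, lower (2.17%), and of 33 actin and asymmetric division genes 1, also lower (3.03%), beside 1.21% of all genes. In the replicate block fit 4 and 2 were lower (8.7 and 6.06% beside 2.87% of all genes) and 1 and 1 higher (2.17 and 3.03% beside 2.47%). Tuba1c, an alpha tubulin, was at 89.0, 98.7 and 245 CPM on day 10 and 335, 564 and 493 CPM on day 6 (-1.69 ± 0.61), and lost the call without IVG day 10 replicate 1 (-1.42) or 2 (-1.47). Tuba1b and Tuba1a were lower in the replicate block fit (-1.33 and -1.74), and since these paralogs are nearly identical the split of their reads is uncertain. Arf6, a small GTPase of the oocyte cortex, was at 24.6, 27.4 and 45.6 CPM against 93.5, 177 and 58.5 CPM (-1.76 ± 0.76), and lost the call without IVG day 10 replicates 1 (-1.56) or 2 (-1.64) or IVG day 6 replicate 2 (-1.23). Rac1, a GTPase of actin remodelling, was at 82.7, 89.0 and 298 CPM against 204, 389 and 448 CPM and was lower in the replicate block fit (-1.34 ± 0.34). All 5 of these genes were lower in each pair. The higher members of these lists in the replicate block fit were Kif5b, a kinesin heavy chain (60.4, 77.8 and 64.4 CPM against 49.97, 25.7 and 25.8 CPM, block 1.06 ± 0.38), and Anln, an actin-binding protein of the cleavage furrow (215, 204 and 59.9 CPM against 104, 38.6 and 62.2 CPM, block 1.12 ± 0.45).

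In the p53 and apoptosis list of 36 tested genes, 1 was higher and 1 lower (2.78 and 2.78%, beside 1.69 and 1.21% of all genes). The higher was Gadd45g, a stress-response gene, at 0, 0.0907 and 0.669 CPM on day 10 with no count on day 6, and it lost the call without IVG day 10 replicate 3 (3.79) or any 1 day 6 library (6.14 to 6.27). Chek1, a kinase of the DNA damage checkpoint, was at 700, 519 and 261 CPM on day 10 and 1622, 2969 and 336 CPM on day 6 (-1.74 ± 0.75), and lost the call without IVG day 6 replicate 1 (-1.74) or 2 (-0.99) or IVG day 10 replicate 2 (-1.77) or 3 (-1.43). Mcl1, an antiapoptotic BCL2 protein, was at 4.27, 4.06 and 7.55 CPM against 42.4, 20.3 and 14.0 CPM, and Mdm4, a p53 inhibitor, at 1649, 1202 and 794 CPM against 3258, 4454 and 1002 CPM. Both were lower in the replicate block fit (-2.18 and -1.07) and did not pass the threshold in edgeR's fit over all libraries. DESeq2's Wald test called Mcl1 lower (-2.24), besides Chek1 lower (-1.75) and Gadd45g higher (5.62).

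Among 48 DNA methylation and chromatin regulators there was no DEG in edgeR's fit over all libraries (0 with an unadjusted p under 0.05, and 0 by DESeq2), and in the replicate block fit 4 were higher and 1, Sirt1, lower (8.51 and 2.13% beside 2.47 and 2.87% of all genes). With the block over the 12 in vitro libraries 2 were higher and 0 lower. Zfp57, a zinc finger protein that protects imprints, was at 1160, 925 and 254 CPM on day 10 and 189, 438 and 49.8 CPM on day 6 (block 2.02 ± 0.34, adjusted p = 0.211). Tet3, the dioxygenase that oxidizes 5-methylcytosine in the zygote, was at 5800, 2905 and 756 CPM against 1115, 1879 and 699 CPM (block 1.02 ± 0.41). Tet2 and Kdm4a, a histone demethylase, were the other higher members (1.75 and 1.53). In the rRNA-poor pair 3 the log2 differences were 0.11 for Tet3, 0.66 for Tet2 and 0.30 for Kdm4a, and 2.35 for Zfp57.

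Of 32 imprinted genes tested, 5 were DEGs upwards and 1 downwards, 15.6 and 3.12% of the list beside 1.69 and 1.21% of all genes. The higher members were Zrsr1 (5.17, 3.95 and 2.57 CPM against 0, 0 and 0.0883 CPM), Cd81, Igf2, Nnat and Nap1l5, and the lower was Rasgrf1. Nap1l5 was the most abundant of them, at 3.73, 38.6 and 22.8 CPM on day 10 against 1.08, 3.24 and 0.544 CPM on day 6 (3.75 ± 1.52). The tetraspanin gene Cd81 was at 0.421, 4.88 and 2.02 CPM with no count on day 6 (at least 97.0-fold higher). Igf2 rested on day 10 replicate 1 (4.80 CPM, against 0.227 and 0.176 CPM in the others) and lost the call without it (5.88), as Nnat did without IVG day 6 replicate 3 (7.59) and Rasgrf1 without IVG day 6 replicate 1 (-5.44). Nap1l5 lost it without IVG day 10 replicate 2 (3.04) or IVG day 6 replicates 1 (3.53) or 3 (3.33). Peg3, a zinc finger gene expressed from the paternal allele, was lower in the replicate block fit but higher in pair 2.

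Of the metabolic lists, 2 of 53 cholesterol and fatty acid genes, 2 of 43 glycolysis, pyruvate and TCA genes and 2 of 38 antioxidant genes were higher DEGs (3.77, 4.65 and 5.26% beside 1.69% of all genes), and none was a lower one. The sterol regulator Srebf2 was at 187, 126 and 61.8 CPM on day 10 and 45.9, 55.0 and 17.9 CPM on day 6 (1.66 ± 0.76), higher by 2.02, 1.19 and 1.78 in the pairs, and lost the call without any 1 library except IVG day 10 replicate 3 or IVG day 6 replicate 2 (1.26 to 1.78). The days were separated for Srebf2, whose 53-member cholesterol and fatty acid list held 1 further DEG, the efflux transporter Abca1. Abca1 lost the call without IVG day 10 replicate 1 (4.88) or any 1 day 6 library (7.26 to 7.37). Pmvk, a kinase of mevalonate metabolism, was lower in the replicate block fit (0.702, 1.77 and 3.03 CPM against 4.82, 13.3 and 6.59 CPM, block -2.28 ± 0.95). Ldha, which encodes the lactate dehydrogenase A subunit, was at 2.67, 48.8 and 20.8 CPM against 1.51, 5.15 and 1.85 CPM (3.09 ± 1.45) and lost the call without any 1 library except IVG day 10 replicate 1 (2.05 to 3.81). Ldha and the pyruvate dehydrogenase kinase Pdk2 were the DEGs of the glycolysis list, and Pdk2 lost the call without IVG day 10 replicate 1 (5.35). In the antioxidant list of 38, Gstm1 and Gpx8 were DEGs with no count on day 6 and at most 2.29 CPM on day 10. Gstm1 lost the call without IVG day 10 replicate 3 (5.29) or IVG day 6 replicate 3 (7.87), and Gpx8 without any 1 library except IVG day 10 replicate 1 (5.55 to 6.43). Hmox1 and Txnrd1, the heme oxygenase and thioredoxin reductase genes, were higher in the replicate block fit (3.39 and 2.34).

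Amino acid transporters held 3 higher DEGs and 1 lower among 26 tested (11.5 and 3.85% beside 1.69 and 1.21% of all genes). Slc7a8 (0, 9.41 and 2.11 CPM), Slc1a1 (1.01, 1.25 and 0.405 CPM) and Slc1a3 (1.24, 0.499 and 0.264 CPM) had at most 0.0588 CPM in any day 6 library. Slc38a3, through which granulosa cells pass neutral amino acids, had no count on day 10 and was at 1.80, 11.8 and 0 CPM on day 6. Slc1a3 had a log2 fold change of 4.68 ± 2.16 and lost the call without any 1 library except IVG day 6 replicate 3 (3.86 to 5.07).

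The remaining lists held few DEGs. The shares higher were 2.38% for mRNA storage and decay, 3.03% for meiotic prophase and 3.33% for fertilization, beside 1.69% of all genes. Among 42 genes of maternal mRNA storage and decay, the uridylyltransferase gene Tut4 was a DEG, at 0.449, 14.1 and 6.32 CPM on day 10 and 0.432, 1.70 and 0.338 CPM on day 6 (3.08 ± 1.45), and lost the call without IVG day 10 replicates 2 (2.05) or 3 (3.15) or IVG day 6 replicates 1 (2.78) or 3 (2.71). Tut7 and the oocyte cap-binding protein gene Eif4e1b were higher in the replicate block fit (1.30 and 1.06). Of 33 genes of meiotic prophase Syce3 alone was a DEG, with counts in day 10 replicate 3 only among these 6 libraries, and its call was lost without that library (0) or any 1 day 6 library (5.63 to 5.76). Of 30 genes of fertilization and egg activation Cd81 alone was a DEG.

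No DEG was found in edgeR's fit over all libraries, and no unadjusted p under 0.05, among 18 oocyte transcription factors, 30 genes of kit and mTOR growth signaling, 8 of the subcortical maternal complex, 12 oocyte NLRP genes, 27 of the small RNA pathway, 9 connexins, 37 of heat shock and endoplasmic reticulum stress, 7 of neurotrophin signaling, 78 mitochondrial ribosomal proteins, 67 of ribosome biogenesis, 46 translation initiation factors, 48 proteasome subunits and 37 of the RAS and MAPK cascade. By DESeq2 3 of their members passed the same threshold: the connexin Gjb2 (3.88) and the kinase Map2k3 (3.54) upwards, and the PIWI protein Piwil2 (-3.14) downwards. In the replicate block fit, members past the threshold included Pou5f1, the pluripotency factor (157, 174 and 33.6 CPM against 87.1, 39.6 and 18.2 CPM, 1.28 ± 0.36), the stress factor Atf4 (25.8, 32.4 and 98.3 CPM against 112, 126 and 139 CPM, -1.54 ± 0.39), Khdc3 of the maternal complex (-1.36 ± 0.37) and Eef2, the translation elongation factor (458, 417 and 165 CPM against 230, 131 and 88.5 CPM, 1.18 ± 0.27). Pou5f1 and Eef2 were higher in each pair, and Atf4 and Khdc3 lower.

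**Figure D5:**
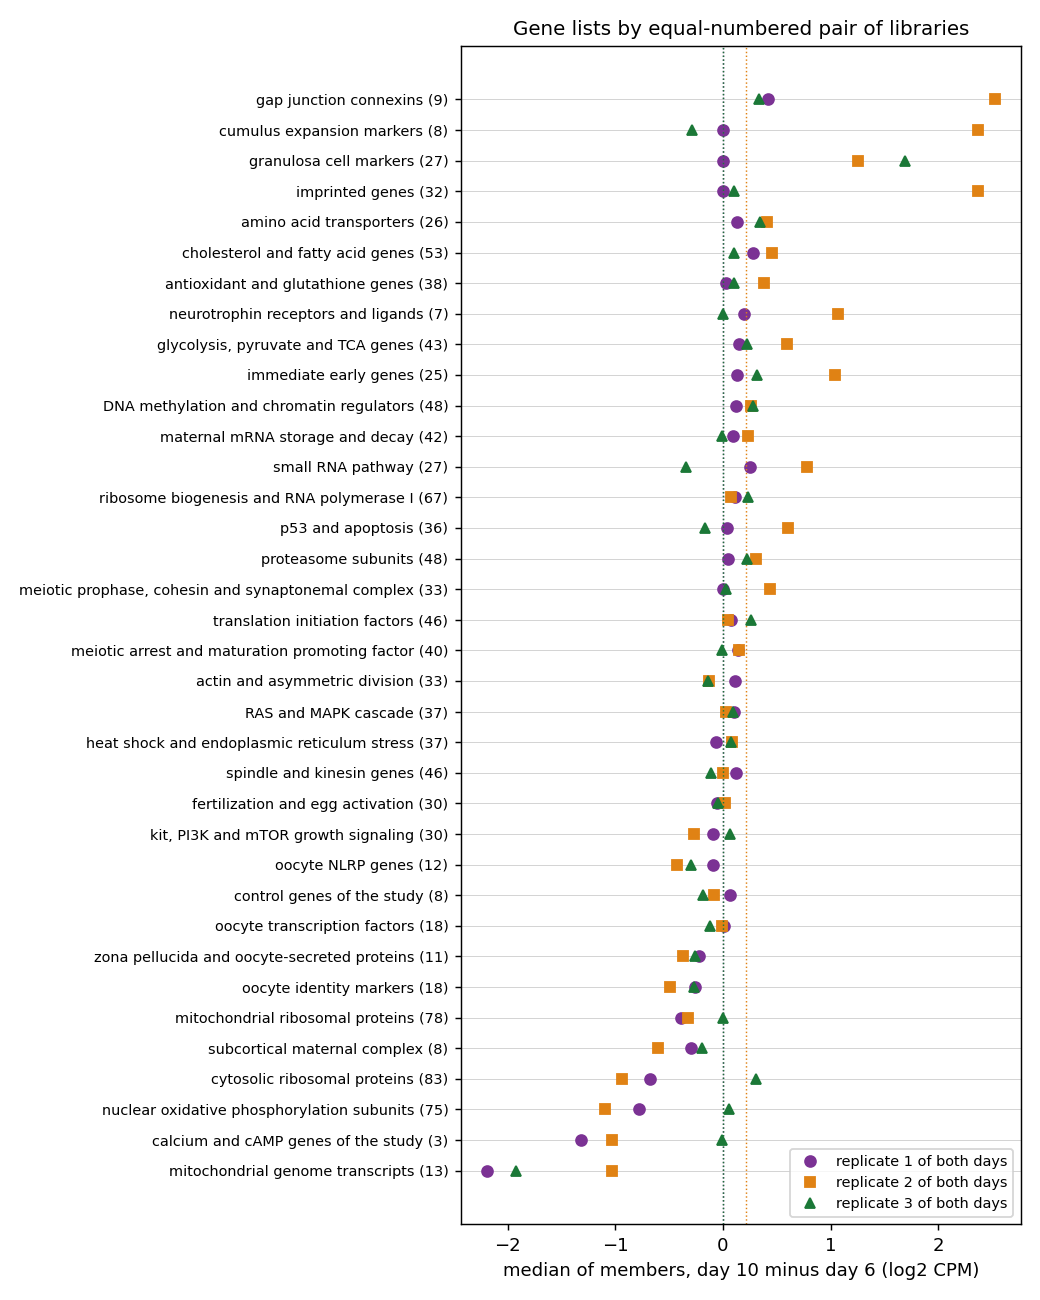
Median difference between IVG day 10 and IVG day 6 (log2 CPM, x axis) over the members of 36 gene lists (y axis, number of genes tested in brackets), 1 point for each pair of equal-numbered libraries. Dotted lines are the medians of all genes tested in each pair (0.00, 0.21 and 0.00). The mitochondrial mRNAs lie below 0 in all 3 pairs (-2.20, -1.03 and -1.92), while the nuclear oxidative phosphorylation and cytosolic ribosomal protein lists are below 0 in pairs 1 and 2 only.

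The change between the days was compared with that of IVG-NT oocytes by an interaction term. For 899 genes (4.28%) the change without NT-4 was above that with NT-4, and for 440 (2.09%) below it, by the same threshold. None had an adjusted p under 0.05 in edgeR, where 1339 genes had an unadjusted p under 0.05, and 170 had one in DESeq2. The median of this difference over all genes was -0.33 with TMM and -0.01 with DESeq2's size factors, so its centre depended on the scaling. IVG-NT day 6 replicates 1 and 2 held 5954262 and 7125348 counts, fewer than any IVG library. None of the 13 mitochondrial mRNAs passed this test (unadjusted p from 0.233 to 0.909, edgeR). Inhba, Inhbb and Ccnd2 did not pass it either. Of the 102 named genes tested, 16 had an unadjusted p under 0.05 in it, among them Vcan, Hmox1 and Chek1, and 0 had an adjusted p under 0.05. These genes had been named for their change without NT-4, which is a part of this contrast. Their count therefore says nothing about NT-4.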

How the data were processed

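The gene counts were deposited by the authors as 1 table per library, raw and not normalized, with 55401 Ensembl gene identifiers. Reads were paired-end, from SMART-Seq2 cDNA, which is primed on poly(A) tails, so changes in RNA amount and in poly(A) tail length cannot be told apart. FastQC, HISAT2, edgeR and the mouse build mm10 are named in the submitters' processing notes without versions, and the study's methods name StringTie for transcript assembly and FPKM. How the deposited counts were assigned to genes and whether strand was used are not given in the sources used here. Of the 119 named genes, 68 overlap another annotated gene, 29 of them on the same strand, and their counts are uncertain to that extent. Gene symbols and positions (GRCm38, the same build) came from the GENCODE vM21 annotation and were found for 99.5% of identifiers.

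Tests used edgeR 4.0.16 (with limma 3.58.1, in R 4.3.3), with TMM scaling, filterByExpr with a minimum count of 10, quasi-likelihood fit of group means over all 15 libraries, and Benjamini-Hochberg adjustment over all 21009 genes. Fold changes of genes at 0 in 1 group depend on the prior count, so a bound against 3 counts over the group is printed for them. The ± values of log2 fold changes are standard errors implied by the test, the absolute log2 fold change divided by the square root of the F statistic. They include the spread between libraries, and for genes at 0 in 1 group they depend on the prior count too. The bounds cover counting error only. DESeq2 1.42.0 and the settings of the closing section were alternatives, and figures were drawn with matplotlib 3.10.9 in Python 3.11.15. No pair of replicates was a repeat of 1 library (chi-square per gene 64.1 to 1473).

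Replicate numbers were taken to pair the samples, because the deviations from the group means of equal-numbered libraries correlated across genes at 0.230, 0.147 and 0.538 for replicates 1, 2 and 3. The crossed pairs of replicates 1 and 2 correlated likewise, at 0.258 and 0.187, and the labels name no shared culture.

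The libraries, the gene lists and the naming rule were chosen with earlier results of these data known. Named were the 8 higher and 8 lower protein-coding and the 3 and 3 long non-coding DEGs of smallest p that differed the same way in every pair, up to 6 per direction of at least 50 CPM from the replicate block fit (limited to adjusted calls where there were any), up to 4 members per list past the threshold in either fit, and the oocyte genes of the study's text, of which Foxa2 had too few counts. Fshr, Ivns1abp, Foxl2, Inha, Cyp19a1, Kitl, Gdf9, Bmp15, Ddi2, Dcn, Hba-a1, Nap1l5, Rasgrf1, Peg3, Fzr1, Sirt1, the mitochondrial RNAs beyond 4, and further members of counted groups were named after their values were seen.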

Additional observations from a re-analysis of the deposited data

How the results depend on the processing

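The number of DEGs was 609 as reported and 416 to 891 under the replicate block on 6 libraries, the replicate block on the 12 in vitro libraries, DESeq2's size factors, DESeq2's Wald test, no filter on low counts, the rRNA gene left out, the rRNA-rich libraries alone and the 6 IVG libraries alone. It was 1022 with a term for rRNA-rich or rRNA-poor libraries, 926 without the shallow IVG-NT day 6 libraries (chosen after seeing the data), and 311 to 915 with 1 IVG library left out, lowest without IVG day 10 replicate 2 and highest without IVG day 6 replicate 3. The split changed with single libraries, from 324 higher and 88 lower without IVG day 10 replicate 1 to 197 higher and 272 lower without IVG day 6 replicate 1, and to 305 higher and 503 lower with no filter. An adjusted p under 0.05 was reached by 0 genes as reported, 1 under the replicate block and 105 (57 higher, 48 lower) by DESeq2's Wald test, and by 0 in every fit without 1 library. For the difference between the changes without and with NT-4, the 1339 genes past the threshold became 770 under the replicate block, 1414 with DESeq2's size factors and 1882 with the rRNA term, and the 0 adjusted calls became 165 with no filter and 170 by DESeq2. Genes whose days did not overlap made up 7.42% (with size factors 7.34%), and those that differed by over 1 in every pair 3.62% (3.60%).

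Of 52 named genes called over all libraries, 27 kept their call without any 1 IVG library. The log2 fold changes that lost or turned their direction, with their range over the fits without 1 library, were those of Syce3 (5.71, from 0 to 6.29), Mrpl30 (0.91, from -0.54 to 3.10), Mrpl33 (-0.67, from -3.34 to 0.54), Mrpl42 (-0.57, from -2.91 to 0.43) and Ndufa6 (-1.08, from -3.44 to 0.30), which did so without IVG day 10 replicate 3 (Syce3, Mrpl30) or IVG day 6 replicate 3 (the others). The cause was not tested. The replicate 3 libraries had the largest effect on list medians, 23 and 25 of 39 of which moved by more than the spread between pairs without 1 of them. For the 294 higher and 173 lower DEGs with no count in any library of the other day, the level there is known only as under a floor of 3 counts over the group.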

Other observations

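A stretch of chromosome 1 (chr1:84992690-85645037, GRCm38), looked at after Sp140, Gm10553 and C130026I21Rik had been named, held 19 genes that were tested. Of these 5 were lower DEGs (A530040E14Rik, C130026I21Rik, Gm10552, Gm10553 and Sp140), beside 1.21% of all genes, and 0 were higher. The median log2 fold change was -1.79. Lower in all 3 pairs were 8 of the 19, beside 11.8% of all genes, and 6 of the 8 members that reached 10 CPM. The stretch was drawn around Sp140, Gm10553 and C130026I21Rik, which are among the 5, so these counts are no independent support. The long non-coding A530040E14Rik was at 178, 151 and 102 CPM on day 10 and at 617, 263 and 613 CPM on day 6, and Gm10552 at 30.5, 31.9 and 41.0 CPM against 115, 61.1 and 180 CPM. Gm10552 lost the call without any 1 library except IVG day 6 replicate 2 (-1.93 to -1.35). The stretch holds several related nuclear body genes and pseudogenes, so the assignment of reads among them is uncertain and the genes are not independent.

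The long non-coding RNAs Gm38102, Gm37468 and Gm17029 had counts in every day 10 library and none on day 6, with levels at least 24.7-fold, 30.4-fold and 71.2-fold higher, and Gm28404 had counts on day 6 alone (at least 42.3-fold lower). Gm34066 was at 0, 0.0680 and 0.422 CPM on day 10 and at 20.3, 39.6 and 1.97 CPM on day 6.

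The abundant genes Plat, Skp1a, Slc6a9 and Lars2 were looked at after their values were seen. Plat, the tissue plasminogen activator gene, was at 1530, 1757 and 545 CPM on day 10 and at 430, 427 and 516 CPM on day 6 (log2 fold change 1.48 ± 0.60), with a difference of only 0.08 in pair 3, and lost the call without any 1 library except IVG day 10 replicate 3 or IVG day 6 replicate 3 (1.18 to 1.44). Skp1a, a subunit of SCF ubiquitin ligases, was at 1645, 1197 and 1230 CPM against 2230, 4169 and 2052 CPM (-1.05 ± 0.49), and lost the call without any 1 day 10 library or IVG day 6 replicate 2 (-1.20 to -0.68). Slc6a9, the glycine transporter with which oocytes regulate their volume, was at 662, 580 and 133 CPM against 271, 239 and 70.7 CPM, past the threshold in the replicate block fit alone (1.16 ± 0.25). Lars2, a mitochondrial leucyl-tRNA synthetase gene, reached 5404 CPM in day 6 replicate 2 and at most 20.8 CPM in the other 5 libraries, so its log2 fold change of -6.91 rested on that library and was 1.15 without it.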
